A study of Arabidopsis thaliana with 6 samples.

Results

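MYB44 (AT5G67300), MYB77 (AT3G50060) and MYB73 (AT4G37260) are closely related transcription factor genes of Arabidopsis thaliana that form, with MYB70, subgroup 22 of the R2R3-MYB family. They are described here as 3 of the 22810 probe sets of the ATH1 array, 246987_at for MYB44, 252193_at for MYB77 and 246253_at for MYB73, in plants treated with aphid saliva and in control plants. The members were chosen by name with the saliva and control values known, so their differences are given as a description. Where the fit of all probe sets calls 1 of them, that is reported as part of the description and not as evidence. The probe-to-gene table used here lists 0 of the 3 probe sets. Their names are those given with the choice of members, and RefSeq gives all 3 loci MYB names, AT5G67300 under the symbol MYBR1 with MYB44 as a synonym. MYB70 has no probe set named here.

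The 3 saliva arrays came from wild-type Col-0 plants that had received Myzus persicae saliva. This insect, the green peach aphid, takes sap from the phloem and releases saliva into the plant as it does so. The 3 control arrays came from Col-0 plants of the same age labelled as control. All plants were 3 weeks old, had not bolted, and had grown on soil at 23 °C under a 16 h photoperiod. The labels give neither the tissue, nor how saliva was applied, nor the time of harvest, nor what the control plants received, and they do not say whether replicates were separate plants, so every error given here is that among arrays and could be technical.

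R2R3-MYB proteins bind DNA through a pair of MYB repeats, and the subgroup of MYB44 carries a repression motif in its C-terminal part. MYB44, MYB77 and MYB73 are known as fast-responding genes that are induced by abscisic acid, salt, cold or wounding, and the proteins bind abscisic acid receptors of the PYR/PYL family. MYB44 represses clade A PP2C phosphatases, which hold abscisic acid signalling off, and acts on the defence genes WRKY70 and EIN2. It has also been linked to resistance against this aphid. MYB77 works with the auxin response factor ARF7 in root growth, and MYB73 restrains the salt overly sensitive genes.

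MYB44 was higher on every saliva array than on any control array. Its signal, an intensity on a linear scale, was 546, 578 and 629 on saliva replicates 1, 2 and 3, against 369, 386 and 331 on control replicates 1, 2 and 3. The groups did not overlap: the lowest saliva value was 1.41 times the highest control value. The mean signal was 584 ± 42.0 with saliva and 362 ± 27.9 in the controls (SD, n = 3 each). On the scale log2(signal + 16), on which the arrays were compared, MYB44 differed by 0.67 ± 0.11 (SE of the limma fit), a 1.59-fold difference. Only 83 of the 13647 probe sets kept by the filter on dim signals had a higher difference. The RNA was that of whole samples, so more cells with MYB44 transcript and more transcript per cell cannot be told apart.

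MYB77 overlapped between the groups. Its signal was 75.1, 92.8 and 97.3 on the saliva arrays, against 84.2, 66.8 and 90.4 on the control arrays. Saliva replicate 1 lay below control replicates 1 and 3, and the lowest value of all was that of control replicate 2. The mean signal was 88.4 ± 11.7 with saliva and 80.5 ± 12.3 in the controls (SD, n = 3 each). The difference was 0.12 ± 0.13 on the log2 scale (SE), no larger than its own error. Without control replicate 2 it was 0.0093, and without saliva replicate 1 it was 0.21.

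MYB73 overlapped as well, and its spread was the widest of the 3 genes. Its signal was 571, 622 and 888 on the saliva arrays, against 734, 641 and 555 on the control arrays. Saliva replicate 3 was the highest of the 6 arrays, while saliva replicates 1 and 2 both lay below control replicates 1 and 2. The mean signal was 693 ± 170 with saliva and 644 ± 89.5 in the controls (SD, n = 3 each). The difference was 0.09 ± 0.15 on the log2 scale (SE). Its sign turned when either of 2 arrays was left out: it was -0.10 without saliva replicate 3 and -0.011 without control replicate 3. Saliva replicate 3 also stood farthest from the other arrays over all probe sets tested, at 22.7 on the first principal component, against 0.37 and 5.31 for the other saliva arrays and between -13.0 and -7.07 for the control arrays. The part of this array's distance in the MYB73 value was not tested.

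**Figure D1:**
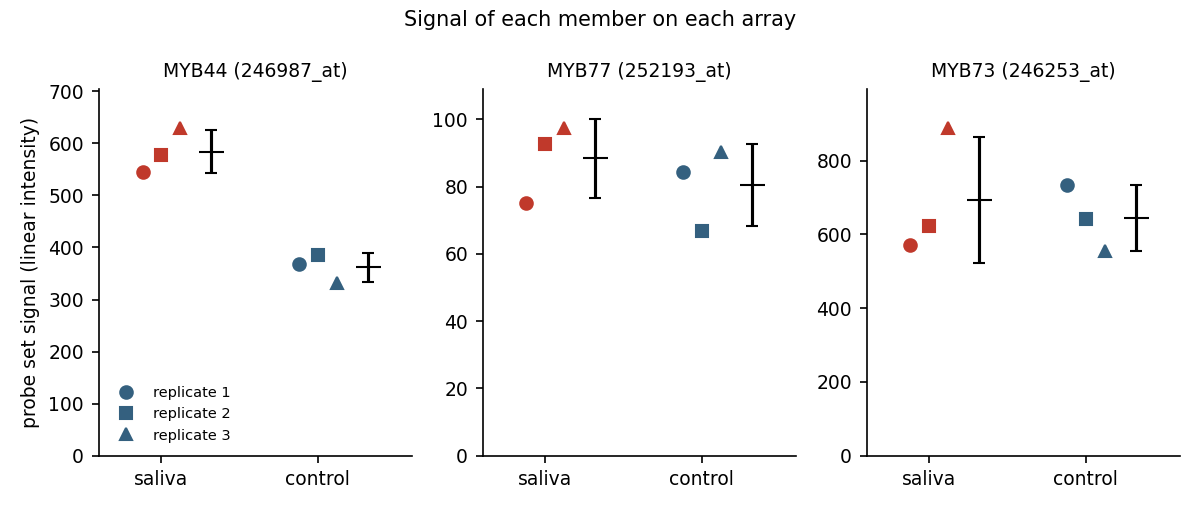
Probe set signal (linear intensity, from 0) of MYB44, MYB77 and MYB73 on the 3 saliva arrays (red) and the 3 control arrays (blue), with marker shapes for the replicate numbers and black bars for the mean ± SD of each group. The MYB44 groups are apart, at 546 to 629 with saliva and 331 to 386 in the controls, and those of MYB77 and MYB73 overlap.

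The probe sets of all 3 genes passed the filter, with a mean above the lowest kept value in both groups. In the fit of all 13647 probe sets, 1 of the 3, that of MYB44, had a Benjamini-Hochberg adjusted p under 0.05 in limma, as did 0.0586% of all probe sets tested. Likewise 1 of the 3 did not overlap between the groups, against 15.5% of all probe sets tested. Nothing is read from these counts, since the members were chosen with this comparison known. The call of MYB44 was lost with any one of the 6 arrays left out, while its difference then stayed between 0.61 and 0.71. Over the 17 alternatives run, which included 6 with 1 array left out, it passed in 4 and ran from 0.61 to 0.71. Of these 4, the wider threshold of 0.1 was bound to be passed, since the same fit had called MYB44 at 0.05. The others were median centring, array weights and the replicate block.

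**Figure D2:**
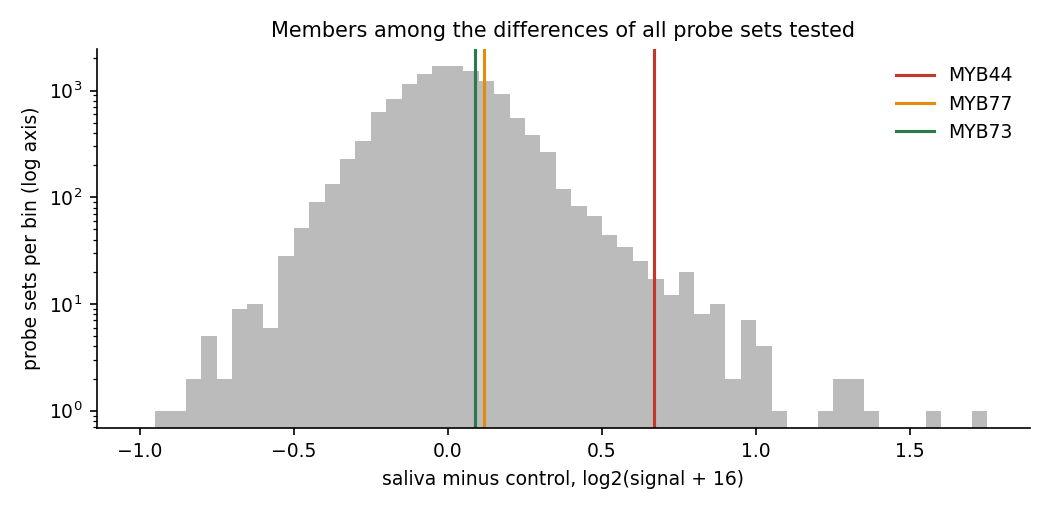
Histogram of the difference between saliva and control, in log2(signal + 16), over the 13647 probe sets tested, with the number of probe sets per bin on a log axis. The vertical lines mark MYB44 at 0.67, in the upper tail, and MYB77 at 0.12 and MYB73 at 0.09, in the bulk of the distribution.

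The 3 genes differed from each other in how far they spread within the groups, a measure apart from the size of the difference, although the limma call of MYB44 also draws on it. The within-group SD on the log2 scale was 0.10 for MYB44, 0.18 for MYB77 and 0.27 for MYB73. A smaller SD was found for 22.1% of the probe sets tested in the case of MYB44, 64.5% for MYB77 and 91.4% for MYB73. Each SD rests on few arrays, and the genes were not compared by a test. The SD of MYB73 was 0.33 among the saliva arrays and 0.20 among the controls, where that of MYB77 was 0.19. Between the highest and the lowest array of a group the MYB44 signal varied by 1.15 times with saliva and 1.16 times in the controls. The MYB73 signal varied by 1.55 times with saliva and 1.32 times in the controls.

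Within the groups, the saliva arrays stood in the same order in the 3 genes and the control arrays did not. Saliva replicate 3 was the highest saliva array in each of them, by 0.11 above the group mean on the log2 scale for MYB44, 0.12 for MYB77 and 0.38 for MYB73. Saliva replicate 1 was the lowest saliva array in each, at -0.094, -0.19 and -0.25 in the same order of genes. The saliva arrays also stood in this order on the first principal component of all probe sets tested, at 0.37, 5.31 and 22.7. Among the genes described below, WES1 had this order too, so the order is not particular to the 3 genes. It was not common to all genes: EIN3, HAT2, STZ, WRKY53 and CML38 had their lowest saliva value on saliva replicate 3. Control replicate 3 was the lowest control for MYB44 (-0.12) and MYB73 (-0.20) and the highest for MYB77 (0.15). Pearson's r of these deviations over the 6 arrays was 0.83 between MYB44 and MYB73, 0.35 between MYB77 and MYB73 and -0.069 between MYB44 and MYB77. For the log2 values themselves it was 0.39, 0.39 and 0.34 for the same pairs. These values share 6 arrays and are given as a description.

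**Figure D3:**
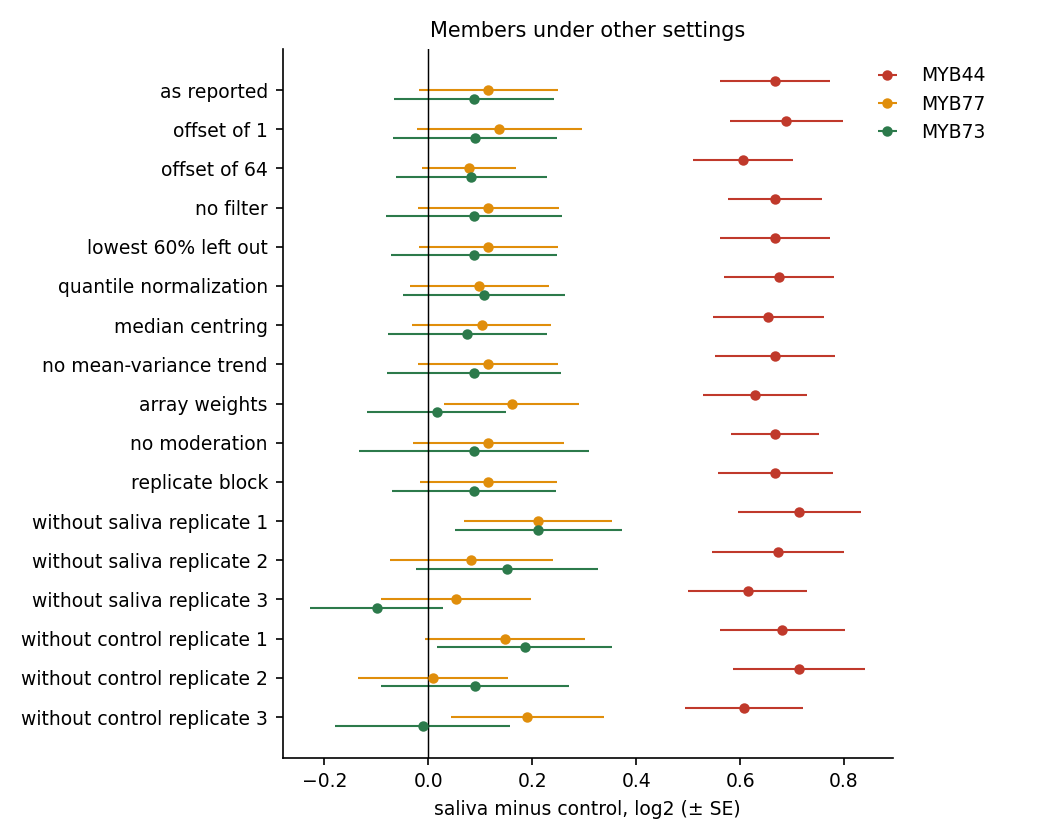
Difference between saliva and control on the log2 scale, with its SE, for MYB44, MYB77 and MYB73 under each setting named on the vertical axis. MYB44 stays between 0.61 and 0.71, MYB77 between 0.0093 and 0.21, and MYB73 lies on both sides of 0, between -0.10 and 0.21.

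Genes with a like pattern were sought among the 7367 tested probe sets with 1 named gene, by Pearson's r of the log2 values over the 6 arrays. With 6 arrays many probe sets reach a high r, and 180 of the others tested had an r of at least 0.9 with MYB44, 105 with MYB77 and 127 with MYB73. The genes most like MYB44 were AT3G04000 (r = 0.991), AT2G25760 (r = 0.989), AT5G49280 (r = 0.983) and bHLH121 (r = 0.979), a transcription factor gene of iron homeostasis. In each of these 4 the saliva arrays all lay above the control arrays, as in 1065 of the 13647 probe sets tested. That follows largely from the choice by r with MYB44, whose own groups are apart, and is not a separate result. The differences lay between 0.27 for bHLH121 and 0.59 for AT5G49280. In limma 0 of the 4 passed, with the smallest adjusted p at 0.124 for AT5G49280.

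The genes most like MYB77 were AT5G26610 (r = 0.983), FCLY (r = 0.978), which encodes farnesylcysteine lyase, AT4G01570 (r = 0.970) and AT5G06570 (r = 0.967). Each of them shared the low values of saliva replicate 1 and control replicate 2 within their groups, and their groups overlapped. FCLY had a signal of 115, 134 and 142 on the saliva arrays, against 130, 111 and 135 on the control arrays. The genes most like MYB73 were APA1 (r = 0.995), which encodes an aspartic protease, AT4G17790 (r = 0.990), the metallothionein gene MT1C (r = 0.990) and AT3G19990 (r = 0.987). MT1C had a signal of 535, 539 and 750 on the saliva arrays, against 641, 568 and 514 on the control arrays. All 4, like MYB73, had their highest value on saliva replicate 3. Such shared values follow from the choice by r.

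**Figure D4:**
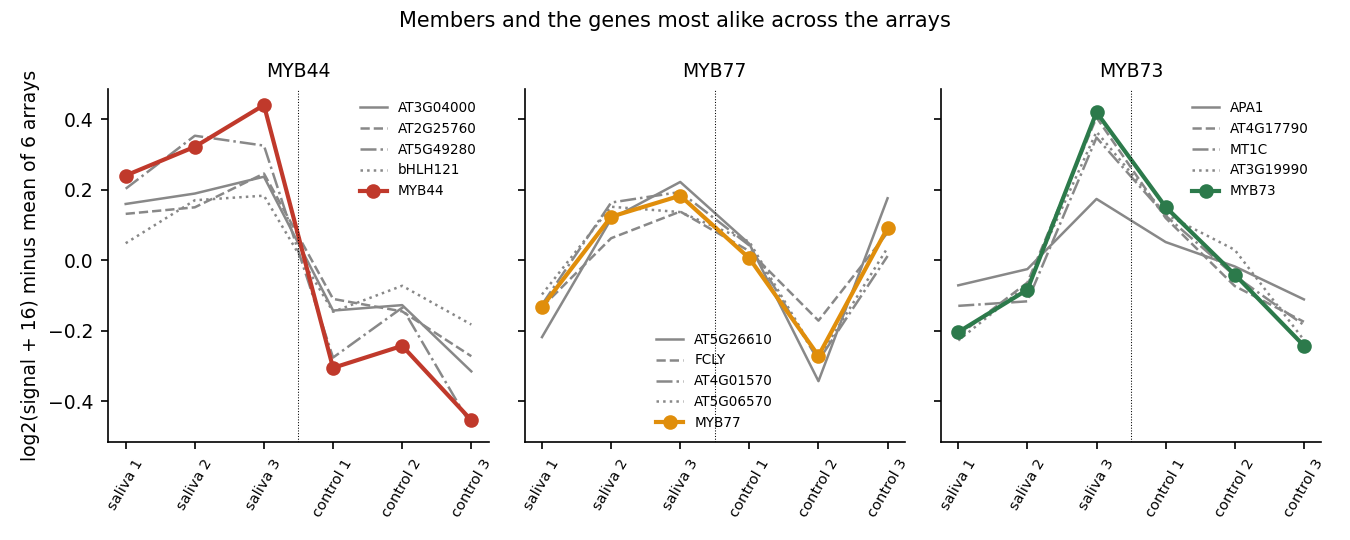
Log2(signal + 16) of each member (coloured) and of the 4 genes with the highest Pearson r to it (grey) on the 6 arrays, as the distance from each gene's mean over all arrays. The lines join arrays only to guide the eye. MYB44 and its 4 genes are high on all 3 saliva arrays, and MYB73 and its 4 genes are highest on saliva replicate 3.

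Genes around the 3 factors were then described from lists written by locus, of which few entries have a probe set named here. Of the 110 entries, 17 were named and 12 passed the filter. The PYR/PYL receptors, the clade A PP2C phosphatases, the SnRK2 and MAP kinases and the salt overly sensitive genes had 0 named probe sets and were not analysed here. Of the other R2R3-MYB genes, 0 were named by a MYB symbol with a number. Over all 12 measured list genes 0 reached an adjusted p under 0.05 in limma, against 0.0586% of all probe sets tested. An unadjusted p under 0.05 in limma was found for 3 (WES1, COR47 and GH3.3), and for 10.2% of all probe sets tested. WES1 alone passed in 2 of the other settings, without saliva replicate 1 and with array weights. WES1 and GH3.3 passed the filter only through their higher saliva signals, as given below. Nothing is therefore read from the count of unadjusted p or from the passes of WES1.

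Of the 4 measured auxin genes 0 rose or fell past the threshold, as did 0.0586% of all probe sets tested. All 4 had a difference above 0, as had 51.5% of all probe sets tested, with a median of 0.43 on the log2 scale against 0.0057 for all. WES1, a GH3 enzyme gene whose product joins auxin to amino acids, had a signal of 28.9, 46.1 and 49.4 on the saliva arrays, against 15.8, 16.5 and 12.7 on the control arrays. Its groups did not overlap, as in 15.5% of all probe sets tested, and its difference was 0.87 ± 0.16 (SE, limma adjusted p = 0.0652). GH3.3, of the same enzyme family, had 29.6, 27.4 and 40.3 with saliva, against 6.20, 19.1 and 26.7 in the controls (0.58 ± 0.21, SE; adjusted p = 0.344). The control means of both on the log2 scale, 4.95 for WES1 and 5.01 for GH3.3, lay below the lowest kept mean of 5.04. Both passed the filter only through their higher saliva signals. Nothing is therefore read from their p-values, or from the list's median and its genes above 0. With such dim controls the differences of both also depend on the offset, and that of GH3.3 was 0.31 without control replicate 1. IAA29, an auxin-induced repressor gene, differed by 0.28 ± 0.17 and HAT2, an auxin-induced homeobox gene, by 0.12 ± 0.14, with overlapping groups. Single arrays moved both: IAA29 was 0.10 without control replicate 1 and 0.47 without control replicate 3, and HAT2 was 0.038 without saliva replicate 2 and 0.26 without saliva replicate 3.

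Across the 6 arrays WES1 had an r of 0.971 with MYB44, against 0.50 with MYB77 and 0.45 with MYB73. That value holds the difference between the groups that MYB44 and WES1 have in common. For deviations from the group means r was 0.79 with MYB44, 0.44 with MYB77 and 0.73 with MYB73. MYB77 is the member known for its work with ARF7 on auxin-responsive genes, and it overlapped between the groups. ARF7 itself has no probe set named here. Whether MYB77, MYB44 or MYB73 acts on WES1 or the other auxin genes was not tested.

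In the abscisic acid and drought list, 2 genes were measured and 0 passed, against 0.0586% of all probe sets tested. The dehydrin gene COR47, whose product protects cells under cold and water deficit, had a signal of 1608, 2373 and 1874 on the saliva arrays, against 1330, 1459 and 1384 on the control arrays. Its groups did not overlap, as in 15.5% of all probe sets tested, with a difference of 0.47 ± 0.13 (SE, limma adjusted p = 0.184). COR15A, which encodes a chloroplast protein of cold acclimation, had 1177, 1329 and 1176 with saliva, against 1160, 1434 and 898 in the controls, and differed by 0.098 ± 0.14, or -0.074 without control replicate 3. Its groups overlapped.

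In the list of defence signalling around MYB44, 2 genes were measured and 0 passed, against 0.0586% of all probe sets tested. EIN3, the transcription factor gene that acts below EIN2 in ethylene signalling, had a signal of 490, 458 and 442 on the saliva arrays, against 389, 425 and 416 on the control arrays. Its groups did not overlap, as in 15.5% of all probe sets tested, but the difference was small, at 0.17 ± 0.10 (SE, limma adjusted p = 0.605). PDF1.2, a defensin gene of jasmonate and ethylene signalling, had 165, 141 and 169 with saliva, against 126, 131 and 146 in the controls (0.21 ± 0.11, SE; adjusted p = 0.559), and its groups overlapped. WRKY70 and EIN2 have no probe set named here.

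Touch and rapid stress genes were listed because the 3 MYB genes are themselves induced fast by wounding and other stress. Of the 3 measured, 0 passed and 0 were without overlap, against 0.0586% and 15.5% of all probe sets tested. STZ, a zinc finger repressor gene of abiotic stress, had a signal of 262, 379 and 211 on the saliva arrays, against 194, 530 and 347 on the control arrays. WRKY53, a transcription factor gene of defence and senescence, had 288, 305 and 193 with saliva, against 162, 288 and 175 in the controls, with a difference that ran from 0.18 without control replicate 1 to 0.57 without control replicate 2. CML38, a calmodulin-like gene induced by wounding, had 67.2, 80.4 and 39.0 with saliva, against 44.0, 85.9 and 41.8 in the controls. All 3 were highest on control replicate 2 among the controls and on saliva replicate 2 among the saliva arrays, so they did not share the order of arrays seen in MYB73. The list's median difference was 0.11.

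**Figure D5:**
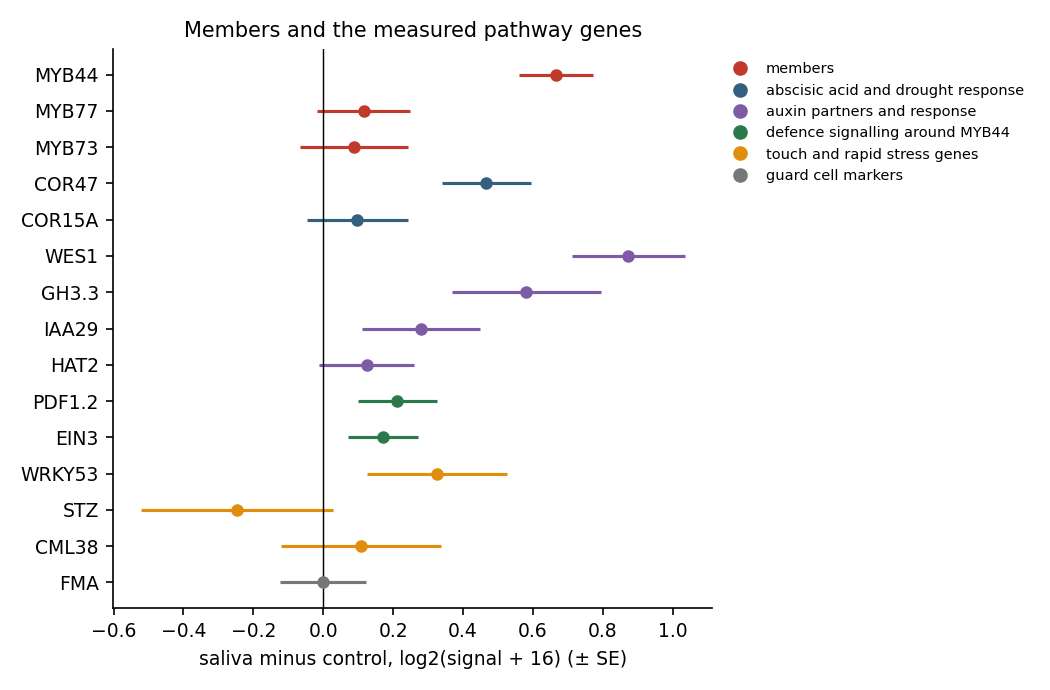
Difference between saliva and control in log2(signal + 16), with its SE, for the 3 members and the 12 measured genes of the lists, coloured by list. WES1 at 0.87, MYB44 at 0.67, GH3.3 at 0.58 and COR47 at 0.47 are the highest of those plotted, and STZ at -0.25 is the lowest.

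Markers of cell types and tissues were read beside these results. FMA, a guard cell gene, was the measured one of 4 guard cell markers and had a mean signal of 46.8 ± 4.56 with saliva and 46.8 ± 4.11 in the controls (SD, n = 3 each). The 3 root genes, EXPA7, EXPA18 and PYK10, were all under the filter on dim signals, and on single arrays they ran from 0.603 to 11.2 with saliva and from 1.31 to 8.83 in the controls. Markers of phloem and flower have no probe set named here, so the share of phloem tissue in the samples was not analysed. The median signal of the arrays ran from 32.7 to 33.4 with saliva and from 32.4 to 32.6 in the controls.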

How the data were processed

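The series holds 6 Affymetrix ATH1 arrays with biotin-labelled total RNA, 3 saliva and 3 control, grouped by the agent in the labels. The authors deposited 1 signal for each probe set and array, a linear intensity. Per the submitters' processing notes, GCOS, MAS5 and limma were used. Their roles and versions are not stated. The table had 0 columns of other samples, and no detection calls were used.

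The 64 control probe sets were left out, 16 was added before log2, and the 40% of the other 22746 probe sets with the lowest mean were left out, which kept 13647, the dimmest with a mean of 5.04 on the log2 scale. The offset understates changes of dim genes. The comparison, saliva minus control, used limma 3.58.1 under R 4.3.3 (lmFit, eBayes with trend), two-sided, with a Benjamini-Hochberg adjusted p under 0.05 as threshold. SE are from this fit. Its recovery of set differences was tested on simulated data with the same SD for every probe set, unlike these data. The SE were not checked there. The number of arrays limits the precision.

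Members and lists were chosen with earlier results of these data known. The loci of the lists come from memory and were matched through the platform annotation and RefSeq (TAIR10.1), and a gene's brightest probe set was used. Of all probe sets, 13513 have 1 gene. Named are the members, list genes kept by the filter (all where at most 6) and the 4 genes most like each member. MYB70 and the other R2R3-MYB genes, also to be named, had no probe set named here. No sequences or coordinates are given. Other offsets, filters, normalizations and variance models, the replicate number as a block and 1 array left out were tried.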

Additional observations from a re-analysis of the deposited data

How the results depend on the processing

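The differences of MYB44, MYB77 and MYB73 moved by less than 1 within-group SD under each alternative run. That of MYB44 was above 0 in 17 of 17, that of MYB77 in 17 of 17 and that of MYB73 in 15 of 17, the exceptions being without saliva replicate 3 (-0.10) and without control replicate 3 (-0.011). Another filter, variance model or threshold and the replicate block cannot change a difference, so these alternatives add nothing to such counts. For MYB44, whose groups do not overlap, leaving out 1 array could not turn the sign either. MYB44 passed the threshold with median centring, with array weights, with the replicate block and at an adjusted p under 0.1, and in no other alternative. The count of 8 probe sets past the threshold became 2 at an offset of 1 and also at 64, 1 with no filter, 2 with the lowest 60% left out, 1 with quantile normalization, 1 with no mean-variance trend, 53 with array weights, 1 with no moderation and 50 at an adjusted p under 0.1. Without single arrays it ran from 1 to 14, with 14 without saliva replicate 1. With the replicate block it was 29. The deviations of same-numbered arrays had correlations of -0.059, 0.12 and 0.15 for numbers 1, 2 and 3. The labels do not say whether a number marks a shared batch, and this was not tested.

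The alternatives for the list genes were added after the data were seen. The count of list genes past the threshold, 0, was 1 with array weights and 1 without saliva replicate 1, WES1 in both (0.85 and 1.04). Nothing is read from these passes, since WES1 passed the filter only through its higher saliva signals. The sign changed for CML38 without saliva replicate 2 (-0.064), control replicate 1 (-0.011) and control replicate 3 (-0.039), for COR15A without control replicate 3 (-0.074), for STZ without control replicate 2 (0.081), and for FMA with array weights (0.0093), without saliva replicate 1 (0.060) and without control replicate 3 (0.048). Over all settings, with both ends set by the offset, GH3.3 lay between 0.25 and 1.05 and WES1 between 0.41 and 1.38. With single arrays left out CML38 reached 0.37, COR15A 0.26, FMA -0.046 and STZ -0.61 at the other end of their ranges. The cause was not tested.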
